A study of Arabidopsis thaliana with 9 samples.

Results

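The DUF642 genes of Arabidopsis thaliana encode secreted proteins of the plant cell wall, and 9 of them were followed through 9 RNA-seq libraries of freshly harvested seeds, among 22555 genes measured. The 9 genes are DGR1 (AT1G80240), DGR2 (AT5G25460), BIIDXI (AT4G32460), AT5G11420, TEEBE (AT2G41800), AT2G41810, AT3G08030, AT1G29980 and AT2G34510. The family was chosen by its protein domain after it had been seen, in these same libraries, that DGR1 and AT5G11420 passed the test across all genes. The values below are therefore a description of the family, and no p-value is given for a DUF642 gene. All seeds carried DOF6ioex, a construct that lets estradiol switch on extra expression of DOF6, a gene for a transcription factor, and all were imbibed for 8 h. One group of 3 libraries came from seeds that also carried rgl2-13, an allele of the DELLA gene RGL2, in 50 µM estradiol (rgl2-13 DOF6ioex estradiol). The second group of 3 was DOF6ioex seed in 50 µM estradiol (DOF6ioex estradiol), and the third group of 3 was DOF6ioex seed in the mock solution, which the labels also call water (DOF6ioex mock). RGL2 restrains gibberellin signalling and germination, and its protein forms a complex with DOF6 in dormant seeds. No estradiol-treated seed without the construct and no mock-treated rgl2-13 seed is among these libraries, so estradiol itself and the induction of DOF6 cannot be told apart.

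DUF642 proteins are found throughout the seed plants and are bound to the cell wall. Several are linked to pectin, whose homogalacturonan backbone is made with methyl groups that pectin methylesterases later remove, a step that changes how stiff or loose the wall is. BIIDXI raises pectin methylesterase activity and acts during germination, and the AT5G11420 and BIIDXI proteins bind the catalytic domain of the pectin methylesterase PME3 in vitro. DGR1 and DGR2 were named for their response to L-galactono-1,4-lactone, the last precursor of ascorbate. TEEBE is induced by auxin, and the AT3G08030 transcript is stored in dry seeds and has been proposed as a marker of seed ageing.

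The deposited values are FPKM, fragment numbers divided by gene length and library size, so levels can be compared between genes. From the steps in the low values the depth was estimated at 26400000 to 28000000 fragments in each library. With gene lengths shortened by 50 bases the steps fitted better and the estimate was 29300000 to 31400000. The fragment numbers below use the first estimate and would be somewhat higher with the second. DOF6 had 52.3, 21.4 and 27.5 FPKM in rgl2-13 DOF6ioex estradiol and 33.7, 32.1 and 36.0 FPKM in DOF6ioex estradiol, against 0.64, 0.86 and 0.41 FPKM in DOF6ioex mock. RGL2 was higher in the libraries labelled rgl2-13, with 17.9, 16.2 and 18.8 FPKM there, against 8.02, 7.57 and 10.2 FPKM in DOF6ioex estradiol (limma, adjusted p = 0.0184). FPKM over a whole gene does not show whether a transcript is intact, so this measure does not check the allele. The 6 seed storage genes summed to 44754 to 46762 FPKM in rgl2-13 DOF6ioex estradiol, 51593 to 53607 in DOF6ioex estradiol and 51554 to 67208 in DOF6ioex mock. The 5 endosperm markers summed to 33840 to 67439 FPKM in rgl2-13 DOF6ioex estradiol, 37220 to 50230 in DOF6ioex estradiol and 42131 to 54225 in DOF6ioex mock, nearly all of it EPR1. Over the 9 libraries ICE1 had 24.6 to 27.7 FPKM, AT3G12910 0.01 to 0.12, and RGE1 and NAC025 0.01 to 0.05. The 7 seed coat markers summed to 4.15 to 4.92 FPKM in rgl2-13 DOF6ioex estradiol, 3.97 to 4.59 in DOF6ioex estradiol and 3.73 to 4.39 in DOF6ioex mock. Most of that was MUM4, at 2.63 to 3.76 FPKM over the 9 libraries. The 3 leaf markers summed to 25.3 to 32.5 FPKM in rgl2-13 DOF6ioex estradiol, 21.4 to 24.5 in DOF6ioex estradiol and 19.2 to 38.5 in DOF6ioex mock. Most of that was RBCS1A, at 16.5 to 34.4 FPKM over the 9 libraries, while CAB3 had 0.03 to 0.34. In a principal component analysis the first component, with 45.6% of the variance, set rgl2-13 DOF6ioex estradiol replicate 1 at 37.3 and the other libraries between -12.9 and 7.13. The second, with 18.5%, held DOF6ioex mock replicates 1 and 2 at 14.0 and 17.3 and DOF6ioex mock replicate 3 at -1.04. The estradiol libraries lay between -11.3 and 3.23 on it.

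AT3G08030 carried most of the family's transcript. It took 50.1% to 67.9% of the summed DUF642 FPKM and came first among the 9 genes in every library, and in rank among all genes it lay between place 881 and place 1721. AT5G11420 supplied 11.2% to 21.3% of the sum, DGR2 6.81% to 25.3% and AT1G29980 3.32% to 6.82%. Together the 9 genes summed to 143, 117 and 103 FPKM in rgl2-13 DOF6ioex estradiol and to 65.9, 70.5 and 86.9 FPKM in DOF6ioex estradiol, against 104, 125 and 86.6 FPKM in DOF6ioex mock. All 3 sums in the libraries labelled rgl2-13 were thus above all 3 of DOF6ioex estradiol, whereas the mock sums overlapped both.

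**Figure D1:**
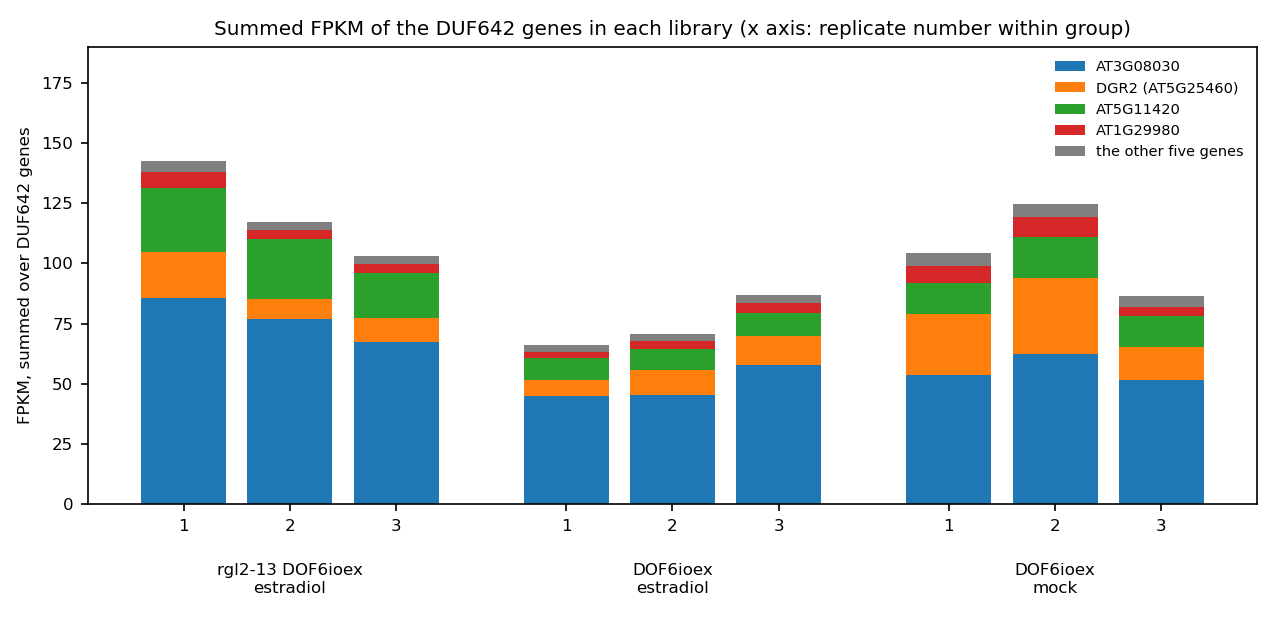
Each bar is 1 library and its height the FPKM (y axis) summed over the 9 DUF642 genes, split by gene, with the replicate number on the x axis and the 3 groups side by side. AT3G08030 fills 50.1% to 67.9% of every bar, and the sums run from 103 to 143 in rgl2-13 DOF6ioex estradiol, 65.9 to 86.9 in DOF6ioex estradiol and 86.6 to 125 in DOF6ioex mock.

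The members tied to pectin methylesterases are given first. AT5G11420 had 26.5, 25.0 and 18.8 FPKM in rgl2-13 DOF6ioex estradiol and 8.92, 8.90 and 9.78 FPKM in DOF6ioex estradiol, against 13.0, 16.9 and 12.9 FPKM in DOF6ioex mock. None of its 3 groups overlapped another, and the DOF6ioex estradiol libraries were the lowest. BIIDXI had 2.36, 1.56 and 1.56 FPKM in rgl2-13 DOF6ioex estradiol and 1.08, 1.06 and 1.37 FPKM in DOF6ioex estradiol, against 1.62, 1.49 and 1.63 FPKM in DOF6ioex mock. DOF6ioex estradiol again lay below both other groups, which overlapped each other.

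The 2 genes named for the ascorbate precursor differed in level and in their pattern over libraries. DGR1 had 1.33, 1.09 and 0.96 FPKM in rgl2-13 DOF6ioex estradiol and 0.97, 0.98 and 0.91 FPKM in DOF6ioex estradiol, against 3.05, 2.76 and 2.47 FPKM in DOF6ioex mock. Every mock library stood above every estradiol library of either genotype. DGR2 had 19.2, 8.00 and 10.1 FPKM in rgl2-13 DOF6ioex estradiol and 6.97, 10.3 and 11.8 FPKM in DOF6ioex estradiol, against 25.3, 31.5 and 13.7 FPKM in DOF6ioex mock. Its high libraries were DOF6ioex mock replicates 1 and 2 and rgl2-13 DOF6ioex estradiol replicate 1. These mock libraries lay farthest out on the second principal component, and the rgl2-13 library on the first.

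AT3G08030, the seed-stored transcript, had 85.7, 77.1 and 67.2 FPKM in rgl2-13 DOF6ioex estradiol and 44.8, 45.4 and 58.0 FPKM in DOF6ioex estradiol, against 53.7, 62.4 and 51.6 FPKM in DOF6ioex mock. The libraries labelled rgl2-13 lay above both other groups, and those 2 groups overlapped. AT1G29980, for which no role is described here, had 6.44, 3.90 and 3.90 FPKM in rgl2-13 DOF6ioex estradiol and 2.60, 3.23 and 4.15 FPKM in DOF6ioex estradiol, against 6.68, 8.49 and 3.68 FPKM in DOF6ioex mock. Its groups all overlapped, and its 3 highest libraries were the 3 in which DGR2 was highest.

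Low values were found for the other 3 members. TEEBE had 0.32 to 0.50 FPKM in the 9 libraries, AT2G34510 had 0.20 to 0.55 and AT2G41810 had 0.01 to 0.13. At the estimated depth these stand for 12.7 to 21.0, 10.3 to 28.3 and 0.4 to 4.8 fragments per library, and for each gene every group overlapped the others. TEEBE averaged 0.39 ± 0.096 FPKM in rgl2-13 DOF6ioex estradiol, 0.41 ± 0.066 in DOF6ioex estradiol and 0.417 ± 0.021 in DOF6ioex mock (SD, n = 3 each). These 3 genes were below the filter of the fit and were not tested. For comparison, the estimated fragments were 40.2 to 128 for DGR1, 40.4 to 93.0 for BIIDXI, 111 to 368 for AT1G29980, 295 to 1360 for DGR2, 385 to 1205 for AT5G11420 and 2026 to 4085 for AT3G08030.

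**Figure D2:**
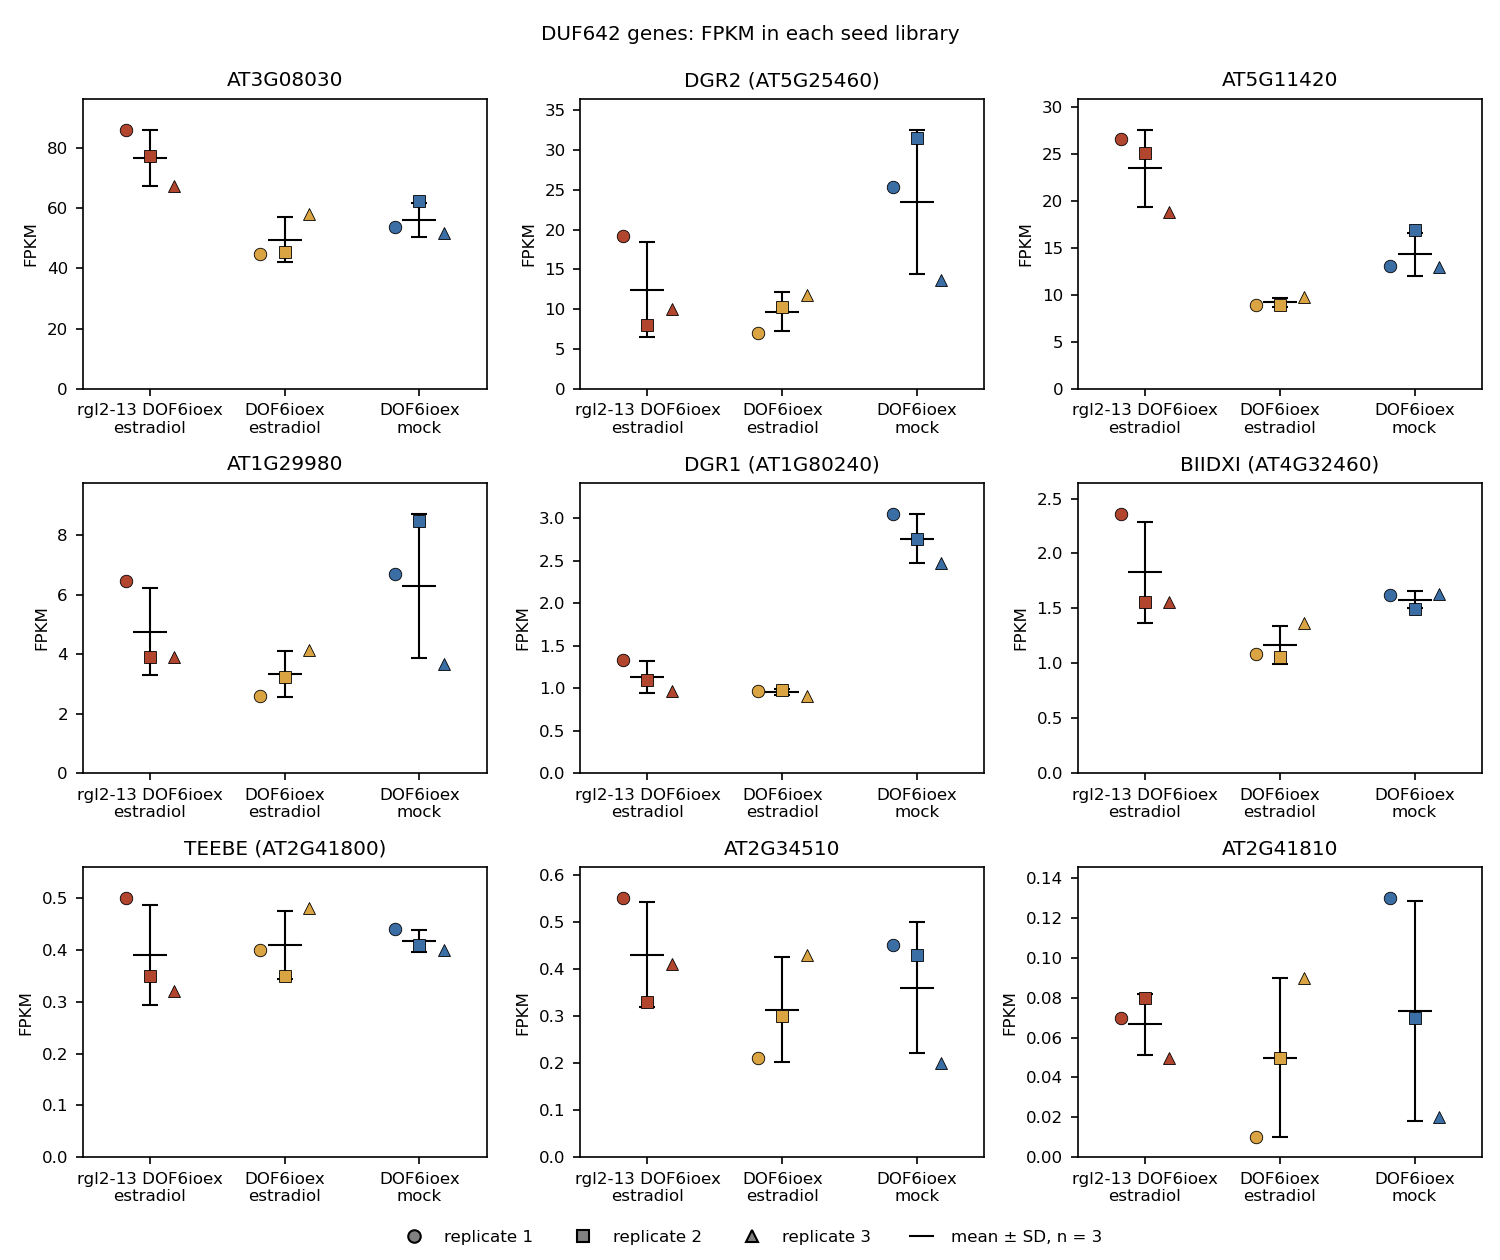
FPKM (y axis, from 0, with its own scale in each panel) of the 9 DUF642 genes in the 3 groups (x axis). Symbols are single libraries by replicate number, and bars are means ± SD of 3 libraries; AT5G11420 is lowest and DGR1 low in DOF6ioex estradiol, and AT3G08030 is highest in rgl2-13 DOF6ioex estradiol at 67.2 to 85.7 FPKM.

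Sorted by mean FPKM, AT3G08030 came first and AT2G41810 last in all 3 groups. In rgl2-13 DOF6ioex estradiol the order was AT3G08030, AT5G11420, DGR2, AT1G29980, BIIDXI, DGR1, AT2G34510, TEEBE and AT2G41810. In DOF6ioex estradiol DGR2, at a mean of 9.66 ± 2.45 FPKM, stood beside AT5G11420 at 9.20 ± 0.502 (SD, n = 3 each), and TEEBE came before AT2G34510. DOF6ioex mock had that order too, except that DGR1 came before BIIDXI. The neighbours DGR2 and AT5G11420, and likewise TEEBE and AT2G34510, overlapped in each group, and no other neighbours did.

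In DOF6ioex seed, estradiol was accompanied by lower DGR1. DGR1 fell to 0.345 times its mock level, with means of 0.953 ± 0.0379 FPKM in DOF6ioex estradiol and 2.76 ± 0.29 FPKM in DOF6ioex mock (SD, n = 3 each). Differences were fitted with limma on log2(FPKM + 1) for the 13679 genes that reached 1 FPKM in 3 or more libraries, and a gene passed at a Benjamini-Hochberg adjusted p under 0.05 over all of them. The filter kept 6 DUF642 genes and removed TEEBE, AT2G41810 and AT2G34510. Of the 6, DGR1 was the 1 that passed, where 0.154% of all tested genes did. Its difference was -0.94 ± 0.10 (SE) on the log2 scale. The passes of DGR1 and AT5G11420 were known when the family was chosen. Set beside the shares of all genes, here and in the comparisons below, these passes are therefore no measure of the family. The same holds for the signs, medians and groups without overlap given below, which include both genes. DGR1 reached 1 FPKM in no DOF6ioex estradiol library and cleared the filter through the other 2 groups. The added 1 in the log scale understates so low a gene: with 0.1 in its place the difference was -1.44. In whole seeds, fewer cells of a type and less RNA per cell cannot be told apart.

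DGR2 was at 0.411 times its mock level in that comparison and did not pass. Its means were 9.66 ± 2.45 FPKM in DOF6ioex estradiol and 23.5 ± 9.06 FPKM in DOF6ioex mock (SD, n = 3 each), a difference of -1.15 ± 0.32 (SE) in log2(FPKM + 1). DOF6ioex mock replicate 3, at 13.7 FPKM, lay close to DOF6ioex estradiol replicate 3, at 11.8 FPKM. AT5G11420 had -0.57 ± 0.14, AT1G29980 -0.71 ± 0.24, BIIDXI -0.25 ± 0.12 and AT3G08030 -0.18 ± 0.13 on the same scale, none of them past the test. With single libraries left out AT3G08030 ran from -0.30 to -0.10. All 6 differences were negative, with a median of -0.64, while the median over all tested genes was 0.039 and 37.4% of them were lower. DGR1, DGR2, BIIDXI and AT5G11420 had groups that did not overlap, lower in DOF6ioex estradiol, as had 4.31% of all tested genes. No DUF642 gene was higher without overlap, where 10.6% of tested genes were. DGR1 and AT5G11420 were known when the family was chosen, so these counts and the median are no measure of the family. In a fit on these 6 libraries alone DGR2 and AT5G11420 also passed, which makes 3, while the share of all tested genes that passed was 0.785% in that fit.

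In estradiol, AT5G11420 was higher in the libraries labelled rgl2-13. It rose 2.55-fold in mean FPKM, to 23.4 ± 4.11 in rgl2-13 DOF6ioex estradiol, against 9.20 ± 0.502 in DOF6ioex estradiol (SD, n = 3 each). Its difference was 1.25 ± 0.14 (SE) on the log2(FPKM + 1) scale, and it was the 1 DUF642 gene to pass, where 0.161% of all tested genes did. By the size of the difference it lay in place 8 from the highest of the 13679 genes, and AT3G08030 in place 84. AT3G08030 averaged 76.7 ± 9.28 FPKM in rgl2-13 DOF6ioex estradiol and 49.4 ± 7.46 FPKM in DOF6ioex estradiol (SD, n = 3 each), a 1.55-fold difference of 0.63 ± 0.13 on the log2 scale that did not pass. BIIDXI averaged 1.83 ± 0.462 FPKM in rgl2-13 DOF6ioex estradiol and 1.17 ± 0.173 in DOF6ioex estradiol (SD, n = 3 each), with a difference of 0.37 ± 0.12 that did not pass and was 0.24 without rgl2-13 DOF6ioex estradiol replicate 1, the library at 2.36 FPKM.

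AT1G29980, DGR2 and DGR1 had differences of 0.40 ± 0.24, 0.27 ± 0.32 and 0.12 ± 0.10 in this genotype comparison, with overlapping groups and none past the test. These values rest in large part on rgl2-13 DOF6ioex estradiol replicate 1: without it they were 0.20 for AT1G29980, -0.068 for DGR2 and 0.051 for DGR1. DGR2 also stood at 0.076 without DOF6ioex estradiol replicate 1 and at 0.52 without rgl2-13 DOF6ioex estradiol replicate 2. All 6 were positive, with a median of 0.38, where the median over all tested genes was 0.11 and 76.4% of them were higher. Without rgl2-13 DOF6ioex estradiol replicate 1 the median over all genes was 0.038. Median-of-ratios scaling brought that shift to 0.013 and left AT5G11420 at 1.14, past the test. AT5G11420, AT3G08030 and BIIDXI were higher with no overlap between groups, as were 15.8% of all tested genes, and none of the 6 was lower without overlap, where 4.96% of tested genes were. The summed seed storage markers were lower in all 3 libraries labelled rgl2-13 than in any DOF6ioex estradiol library, and their part in these differences was not tested.

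Set against DOF6ioex mock, the libraries labelled rgl2-13 in estradiol differ in both genotype and treatment. DGR1 fell to 0.408 times its mock level there, with means of 1.13 ± 0.188 FPKM in rgl2-13 DOF6ioex estradiol and 2.76 ± 0.29 FPKM in DOF6ioex mock (SD, n = 3 each). It was the 1 DUF642 gene of 6 to pass, at -0.82 ± 0.10 (SE), where 0.57% of all tested genes passed, and it no longer passed without DOF6ioex mock replicate 2 (difference -0.82) or with no filter on low values. AT5G11420 averaged 23.4 ± 4.11 FPKM in rgl2-13 DOF6ioex estradiol and 14.3 ± 2.29 FPKM in DOF6ioex mock (SD, n = 3 each), a difference of 0.67 ± 0.14 that did not pass with all 9 libraries and did without rgl2-13 DOF6ioex estradiol replicate 3, at 0.82.

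AT3G08030 differed by 0.45 ± 0.13 from DOF6ioex mock, BIIDXI by 0.12 ± 0.12, AT1G29980 by -0.31 ± 0.24 and DGR2 by -0.88 ± 0.32, none past the test. BIIDXI was at -0.011 without rgl2-13 DOF6ioex estradiol replicate 1, and AT1G29980 ran from -0.60 without DOF6ioex mock replicate 3 to -0.090 without DOF6ioex mock replicate 2. In this comparison 3 members were thus higher and 3 lower, with a median of -0.096, where the median of all tested genes was 0.14, became 0.0059 under median-of-ratios scaling and was 0.073 without rgl2-13 DOF6ioex estradiol replicate 1. Relative to that shift the 3 positive values are smaller, and AT5G11420 stood at 0.52 after the scaling. AT5G11420 and AT3G08030 were higher with no overlap between groups, as were 27.3% of tested genes, and DGR1 was lower with none, as were 3.49%. These 3 comparisons share libraries pair by pair, so a low group in one sets part of the value in another.

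**Figure D3:**
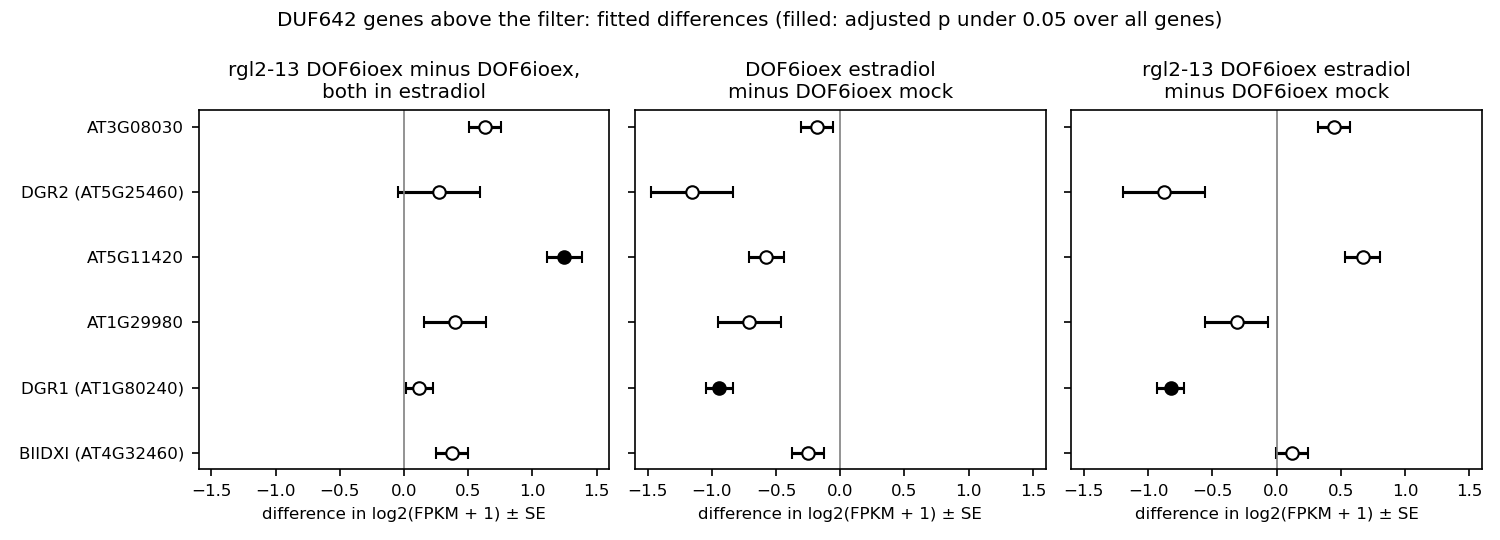
Differences in log2(FPKM + 1) ± SE (x axis) for the 6 DUF642 genes above the filter (y axis), 1 panel for each comparison, from limma on all 9 libraries. Filled points passed at an adjusted p under 0.05 over 13679 genes: AT5G11420 at 1.25 in the genotype comparison, and DGR1 at -0.94 and -0.82 against DOF6ioex mock.

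The rise of AT5G11420 and the fall of DGR1 were computed under 15 other settings each. These settings reuse the libraries in which both genes had already been seen to pass. They show how far the values depend on the processing and are no separate evidence. DGR1 stayed past the test in 15 of 15 for DOF6ioex estradiol against DOF6ioex mock, with differences between -1.44 and -0.89. AT5G11420 stayed past it in 14 of 15 for rgl2-13 DOF6ioex estradiol against DOF6ioex estradiol, with differences between 1.14 and 1.39. The exception was the fit with no filter on low values, over 22555 genes, in which the difference was still 1.25.

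**Figure D4:**
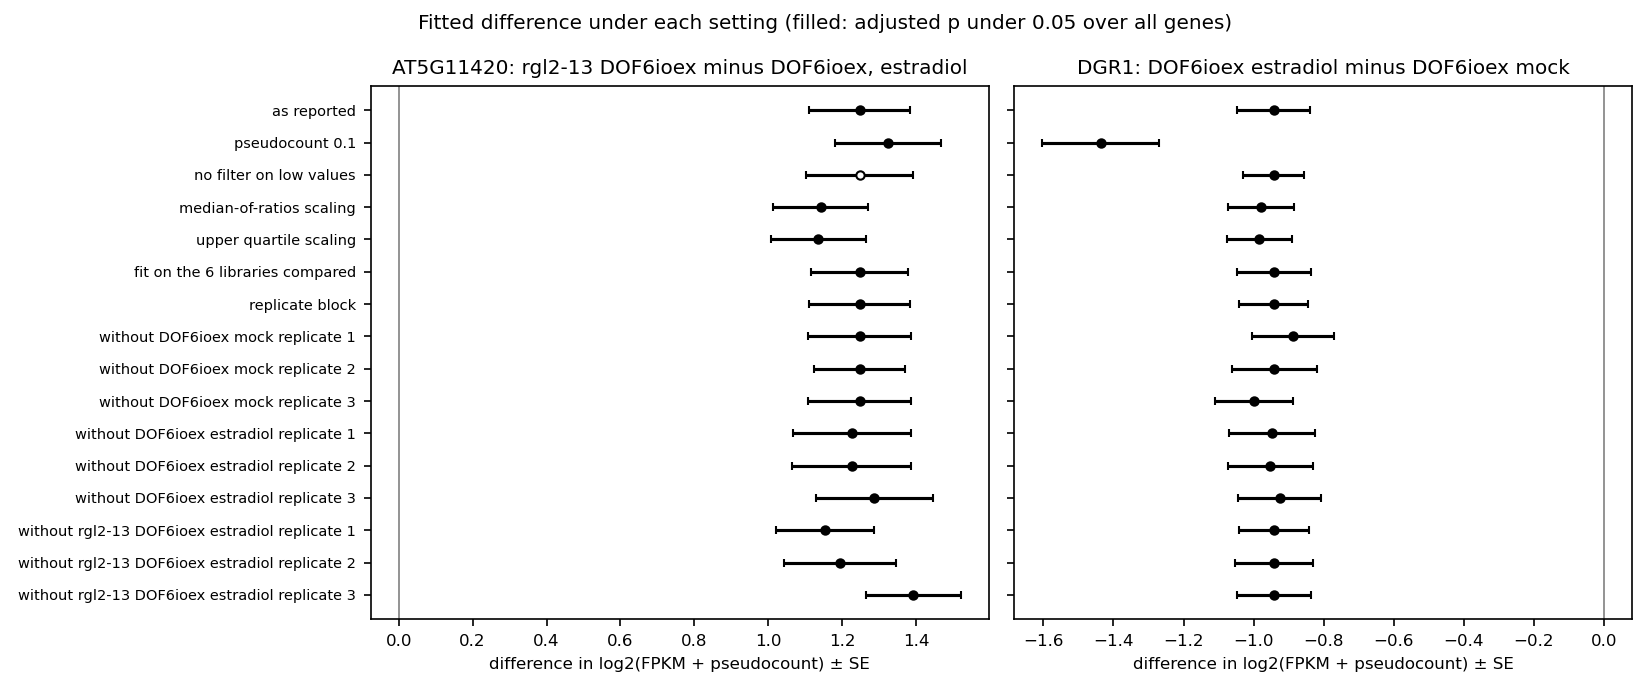
Difference in log2(FPKM + pseudocount) ± SE (x axis) of AT5G11420 between the genotypes in estradiol (left) and of DGR1 between DOF6ioex estradiol and DOF6ioex mock (right), under each setting (y axis). The points lie between 1.14 and 1.39 for AT5G11420 and between -1.44 and -0.89 for DGR1, and the 1 open point did not pass the test.

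Ratios between members within a library do not depend on how libraries are scaled, and 4 were formed after the values had been seen. The ratio of DGR1 to BIIDXI was 0.564 to 0.699 in rgl2-13 DOF6ioex estradiol and 0.664 to 0.925 in DOF6ioex estradiol, against 1.52 to 1.88 in DOF6ioex mock. DGR1 thus had the higher FPKM of the pair in each mock library and the lower in each estradiol library. AT5G11420 stood to AT3G08030 as 0.279 to 0.325 in rgl2-13 DOF6ioex estradiol and 0.169 to 0.199 in DOF6ioex estradiol, against 0.242 to 0.271 in DOF6ioex mock. The 2 genes therefore did not change in equal measure, and no group overlapped another in their ratio.

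The ratio of DGR2 to AT1G29980 was 2.05 to 2.99 in rgl2-13 DOF6ioex estradiol and 2.68 to 3.18 in DOF6ioex estradiol, against 3.71 to 3.79 in DOF6ioex mock. In mock it was nearly the same in all 3 libraries although DGR2 itself varied between 13.7 and 31.5 FPKM, so both genes were high in replicates 1 and 2 together. AT5G11420 stood to DGR2, the member nearest to it in sequence, as 1.38 to 3.13 in rgl2-13 DOF6ioex estradiol and 0.832 to 1.28 in DOF6ioex estradiol, against 0.514 to 0.945 in DOF6ioex mock. The libraries labelled rgl2-13 did not overlap the other 2 groups in that ratio, and those 2 overlapped each other.

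**Figure D5:**
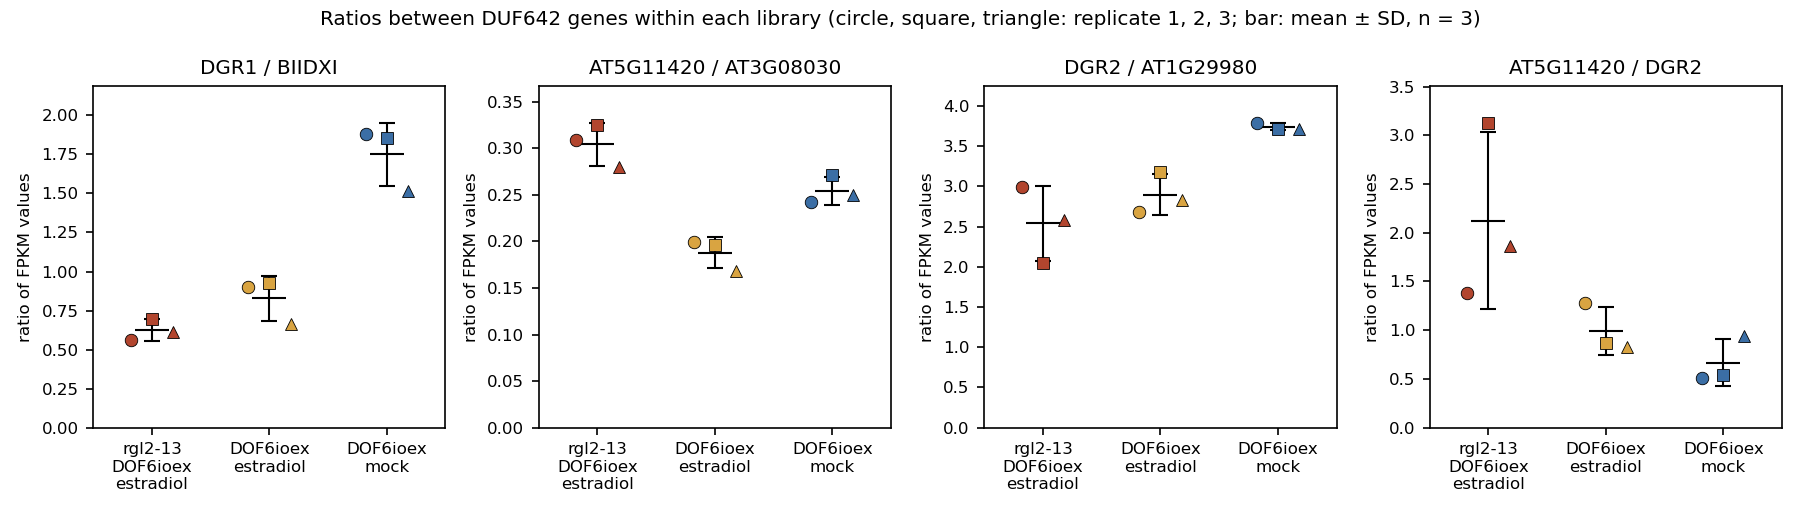
Ratio of FPKM values (y axis, from 0) between DUF642 genes within each library for 4 pairs, by group (x axis), with single libraries as symbols and means ± SD of 3 libraries as bars. DGR1 over BIIDXI is above 1 in mock alone, at 1.52 to 1.88, and AT5G11420 over AT3G08030 is highest in rgl2-13 DOF6ioex estradiol, at 0.279 to 0.325.

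Over the 9 libraries AT5G11420 was most like AT3G08030 among the members. Their Pearson r on log2(FPKM + 1) was 0.94, in place 8 of the 13678 other genes tested. For BIIDXI r was 0.80, for AT1G29980 0.48, for DGR2 0.24 and for DGR1 0.093. The 5 genes of all with the highest r were AT4G00200 (0.96), GATA3 (AT4G34680, 0.96), AT3G18450 (0.95), MAN7 (AT5G66460, 0.95) and BETA-OHASE 1 (AT4G25700, 0.95). GATA3 is a GATA transcription factor, MAN7 an endo-beta-mannanase of the cell wall and BETA-OHASE 1 a carotene hydroxylase. MAN7 averaged 8.74 FPKM in rgl2-13 DOF6ioex estradiol and 3.67 in DOF6ioex estradiol, against 5.34 in DOF6ioex mock. All 5 genes had the same order of group means as AT5G11420, which their choice by r made likely beforehand. All these values come from the same 9 libraries in 3 groups, and they are a description only.

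PME3, the pectin methylesterase whose catalytic domain the AT5G11420 and BIIDXI proteins bind, had overlapping groups throughout. It had 2.56, 0.72 and 1.0 FPKM in rgl2-13 DOF6ioex estradiol and 0.79, 1.35 and 1.68 FPKM in DOF6ioex estradiol, against 2.36, 2.48 and 0.78 FPKM in DOF6ioex mock. Its 3 highest libraries were rgl2-13 DOF6ioex estradiol replicate 1 and DOF6ioex mock replicates 1 and 2, as for DGR2 and AT1G29980. The limma adjusted p was 0.952 between the genotypes in estradiol, 0.860 for DOF6ioex estradiol against DOF6ioex mock and 0.581 for rgl2-13 DOF6ioex estradiol against DOF6ioex mock. The part that these 3 highest libraries have in the values of DGR2, AT1G29980 and PME3 was not tested.

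Of 143 genes listed for pectin methylesterases, their inhibitors, polygalacturonases, pectate lyases and homogalacturonan synthesis, 109 were among the genes measured. Of these, 37 were above the filter. Of these 37, limma called 0 in each of the 3 comparisons; at an unadjusted p under 0.05 it had 10 (27.0%) between the genotypes in estradiol, 2 (5.41%) in DOF6ioex estradiol against DOF6ioex mock and 12 (32.4%) in rgl2-13 DOF6ioex estradiol against DOF6ioex mock. Of all tested genes 15.2%, 6.82% and 25.2% were under that p in these comparisons. Homogalacturonan synthesis genes made up 9 of the 10 between the genotypes in estradiol. They were 10 of the 12 in rgl2-13 DOF6ioex estradiol against DOF6ioex mock. The pectin methylesterases had 39 of 55 listed genes measured and 6 above the filter. The median of these 6 was 0.020 between the genotypes in estradiol. It was -0.22 in DOF6ioex estradiol against DOF6ioex mock and -0.20 in rgl2-13 DOF6ioex estradiol against DOF6ioex mock. PME31 (AT3G29090), the highest of them, averaged 45.8 ± 3.26 FPKM in rgl2-13 DOF6ioex estradiol, 45.7 ± 1.72 in DOF6ioex estradiol and 46.9 ± 1.32 in DOF6ioex mock (SD, n = 3 each). AT3G60730, another pectin methylesterase, averaged 5.02 ± 0.963 FPKM in rgl2-13 DOF6ioex estradiol, 5.20 ± 0.136 in DOF6ioex estradiol and 7.30 ± 3.78 in DOF6ioex mock (SD, n = 3 each).

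Homogalacturonan synthesis had 18 of 19 listed genes measured and 15 above the filter. All 15 were higher in rgl2-13 DOF6ioex estradiol than in DOF6ioex estradiol, where 76.4% of all tested genes were. Their smallest difference was 0.16 and their median 0.29, where all tested genes had a median of 0.11. None passed the test, and the list summed to 170.9, 130.5 and 133.7 FPKM in rgl2-13 DOF6ioex estradiol, against 108.2, 110.4 and 126.1 FPKM in DOF6ioex estradiol. The library that stood apart, rgl2-13 DOF6ioex estradiol replicate 1, was the highest, and its part in the list's median was not tested. GAUT1 (AT3G61130), a galacturonosyltransferase that builds the backbone, averaged 16.7 ± 3.08 FPKM in rgl2-13 DOF6ioex estradiol and 13.3 ± 1.24 in DOF6ioex estradiol, against 12.3 ± 1.11 in DOF6ioex mock (SD, n = 3 each). AT3G49720 averaged 16.5 ± 3.44 FPKM in rgl2-13 DOF6ioex estradiol, 11.4 ± 0.550 in DOF6ioex estradiol and 11.9 ± 1.29 in DOF6ioex mock (SD, n = 3 each). In DOF6ioex estradiol against DOF6ioex mock 6 of the 15 were higher and 9 lower, with a median of -0.0073.

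The pectin-cutting enzymes and the inhibitors had few members above the filter. Of 28 polygalacturonases 21 were measured and 9 above the filter, of 26 pectate lyases 19 and 5, and of 15 inhibitors 12 and 2. Their medians were 0.072, -0.024 and 0.073 between the genotypes in estradiol and 0.016, 0.028 and 0.034 in DOF6ioex estradiol against DOF6ioex mock. The highest polygalacturonases were AT1G70500, at a mean of 117 FPKM in rgl2-13 DOF6ioex estradiol, 89.9 in DOF6ioex estradiol and 97.0 in DOF6ioex mock, and AT3G16850, at 9.90 in rgl2-13 DOF6ioex estradiol, 9.62 in DOF6ioex estradiol and 9.05 in DOF6ioex mock. The pectate lyases AT5G04310 and AT3G55140 averaged 34.9 and 6.59 FPKM in rgl2-13 DOF6ioex estradiol, 37.8 and 6.05 in DOF6ioex estradiol and 36.0 and 5.92 in DOF6ioex mock. The inhibitors AT2G47670 and AT1G62770 averaged 3.37 and 3.12 FPKM in rgl2-13 DOF6ioex estradiol, 3.32 and 2.78 in DOF6ioex estradiol and 3.59 and 2.38 in DOF6ioex mock.

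The coding regions of the members, taken by gene ID from the RefSeq annotation of TAIR10.1, are alike in plan. Each has 3 coding exons, and the lengths run from 1098 bases in BIIDXI and AT3G08030 to 1224 bases in AT1G29980. The closest pairs by identity of aligned coding bases were DGR2 with AT5G11420 at 79.8%, AT1G29980 with AT2G34510 at 78.6% and TEEBE with AT2G41810 at 77.6%. TEEBE and AT2G41810 are also neighbours on the chromosome, and both were low in seed. DGR2 and AT5G11420 overlapped in FPKM in each group, whereas AT1G29980 had 2.60 to 8.49 FPKM and AT2G34510 0.20 to 0.55. None of the 36 pairs shared a coding stretch of 50 identical bases.

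The authors' deposited table of each library pair gives the members' log2 ratios one pair at a time. For DGR1 the authors' deposited table has -1.65, -1.49 and -1.44 for DOF6ioex estradiol over DOF6ioex mock in pairs 1, 2 and 3. For AT5G11420 the authors' deposited table has 1.57, 1.49 and 0.94 for rgl2-13 DOF6ioex estradiol over DOF6ioex estradiol. For DGR2 the authors' deposited table has 1.46, -0.36 and -0.22 in those genotype pairs, so its sign turns between pair 1 and the others. For AT1G29980 the authors' deposited table has 1.31, 0.27 and -0.09 there, while DGR1, BIIDXI, AT5G11420 and AT3G08030 are positive in each pair. For DOF6ioex estradiol over DOF6ioex mock the authors' deposited table has -1.36, -1.39 and 0.17 for AT1G29980 and -0.26, -0.46 and 0.17 for AT3G08030. Among the genes above the filter, DGR1, DGR2, BIIDXI and AT5G11420 are negative in each of those pairs. None of the 9 genes is in the authors' deposited tables of genes past their own threshold, which hold 286 entries for the treatment and 311 for the genotype.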

How the data were processed

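RNA-seq of 9 seed libraries was read from the deposited tables. The reads had been aligned by HISAT, per the submitters' processing notes. Its version is not given in the sources used here, nor are the genome build and the quantifying tool. Per the file headers the authors gave FPKM per gene, headed RPKM in 1 table that holds the same values as another for a library they share, and the log2 ratio of each library pair. The authors also gave a p-value per pair and an FDR, and where the deposited FDR column runs just above 1 it was read as a score. The tables were joined into 22555 genes. Where a library's table lacked a gene, 0.01 FPKM was entered, which concerned 16568 values. No further scaling was applied.

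A count test had been allowed for, but as the values are FPKM, log2(FPKM + 1) was fitted with limma (version 3.58.1, R 4.3.3, mean-variance trend) over the 13679 genes that reached 1 FPKM in 3 or more libraries. All 9 libraries entered 1 fit with a mean per group, adjusted after Benjamini-Hochberg, and the fit was tested on simulated data. The simulated noise was drawn separately for each gene and library, so that test does not cover shifts shared by many genes of a library. Nothing in the labels says that replicates were separate plants or harvests, so p-values measure the spread between these libraries, which may be technical. Depth was estimated from low values as multiples of 1 fragment. At the best of many depths tried, 64.5% to 72.1% of them lay within 0.15 of a whole number. Chance gives 30% at a single depth fixed beforehand, and more at the best of many. With lengths shortened by 50 bases the share was 79.4% to 88.2% and the depth 29300000 to 31400000. The estimate gives no counting interval.

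The members, lists and tests were chosen with earlier results of these data known. All 9 members are named, as are the 5 genes most like AT5G11420, PME3, DOF6, RGL2, and for each pectin list its called genes or, with none, its 2 highest. Coding regions were compared with Biopython 1.88. Alternatives were a pseudocount of 0.1, no filter on low values, scaling by median of ratios or by upper quartile, a fit limited to the 6 libraries compared, a block for the replicate number and each library left out. The files name no build, so no coordinates or sequences are given.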

Additional observations from a re-analysis of the deposited data

How the results depend on the processing

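Of 269 differences of DUF642 genes computed under the alternatives, 267 kept their sign and 261 also their side of the threshold; the fit on 6 libraries gave no value for DGR1 between the genotypes in estradiol, where DGR1 did not reach the filter. The fit on the 6 libraries compared raised the number of members called in DOF6ioex estradiol against DOF6ioex mock to 3, while 105 of 13376 genes (0.785%) were called in that fit and 21 of 13679 in the fit on 9 libraries. With no filter on low values 0 members were called for rgl2-13 DOF6ioex estradiol, both against DOF6ioex estradiol and against DOF6ioex mock, where 22555 genes in place of 13679 shared the adjustment. With each library left out in turn the number called stayed at 1 for DOF6ioex estradiol against DOF6ioex mock and for the genotypes in estradiol. It ran from 0 (without DOF6ioex mock replicate 2) to 2 (without rgl2-13 DOF6ioex estradiol replicate 3) for rgl2-13 DOF6ioex estradiol against DOF6ioex mock. DGR2 (AT5G25460) ran from -0.068 to 0.52 between the genotypes in estradiol, and BIIDXI (AT4G32460) from -0.011 to 0.19 in rgl2-13 DOF6ioex estradiol against DOF6ioex mock; both were negative only without rgl2-13 DOF6ioex estradiol replicate 1, and the cause was not tested.

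Libraries with the same replicate number correlated at -0.41 to 0.25 in their deviations from group means, and those with different numbers at -0.39 to 0.35. Deviations within a group cancel out, so the values for the same and for different numbers depend on each other. With the same number, r was positive between DOF6ioex mock and rgl2-13 DOF6ioex estradiol in replicates 1 (0.25) and 3 (0.18). It was negative in the other pairs with the same number. What libraries with the same number have in common was not tested further. With the replicate block the number of members called was 1 in each of the 3 comparisons, the same as without it. Depth limits TEEBE, AT2G34510 and AT2G41810, with at most 28.3 estimated fragments in a library, or 30.8 with lengths shortened by 50 bases.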

Other observations

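AT5G14150, another gene that the TAIR10.1 annotation places in the DUF642 family, is outside the 9 described. It was listed at 0.01, 0.01 and 0.02 FPKM in rgl2-13 DOF6ioex estradiol and at 0.02, 0.01 and 0.01 FPKM in DOF6ioex estradiol, against 0.01, 0.05 and 0.01 FPKM in DOF6ioex mock.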
